A study of Mus musculus with 12 samples.

Results

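Chaperonins are large ring-shaped chaperones that enclose an unfolded protein in a cavity and release it after ATP hydrolysis. The cytosolic ring, TRiC (also called CCT), is built from 8 related subunits and is best known for folding actin and tubulin. The mitochondrial chaperonin Hsp60, encoded by Hspd1, works with a lid of its cochaperonin Hsp10, encoded by Hspe1, and folds proteins imported into the matrix. The 10 genes described here are the 8 TRiC subunit genes (Tcp1, Cct2, Cct3, Cct4, Cct5, Cct6a, Cct7 and Cct8) and the Hsp60 pair, Hspd1 and Hspe1. They were chosen by gene name, and all 10 were found among the 29030 genes listed at either time.

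The cells were primary cardiac fibroblasts, which make the extracellular matrix of heart muscle, isolated from C57BL/6 mice and cultured in medium with serum. They received either the ethanol vehicle or 6 µM MCB-613-10-1, a derivative of MCB-613 that the series studies for its effect against fibrosis, and RNA was sequenced after 4 h or 24 h. Each of the 4 groups (vehicle at 4 h, treated at 4 h, vehicle at 24 h, treated at 24 h) had 3 libraries. The labels give a single dose, no recovery time, and neither the age nor the sex of the mice. They do not say whether the 3 libraries of a group came from separate cultures or animals, so the p-values measure no more than the spread between libraries, and part of that spread may be technical.

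Vehicle replicate 1 of 4 h stood apart from the other libraries of its group. The chi-square of its counts per degree of freedom was 34.4 and 36.6 against them, whereas every other pair of libraries within a group lay between 7.23 and 15.2. Without it Hspd1 was still the 1 gene of the 10 called at 4 h (0.53, edgeR adjusted p = 0.000148), and larger shifts are given beside the results.

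Libraries held between 25016754 and 34877090 counts, and the 10 genes took 0.369% to 0.414% of them in the vehicle and treated libraries of 4 h, 0.375% to 0.405% in vehicle at 24 h and 0.567% to 0.598% in treated libraries at 24 h. All 9 fibroblast markers were detected. Their summed FPKM, a level per length and depth, lay between 1296 and 1570 at 4 h, between 1358 and 1862 in vehicle at 24 h and between 549.5 and 602.8 in treated libraries at 24 h. At 24 h, 7 of the 9 fibroblast markers fell and 1 rose. The summed level of 7 macrophage and leukocyte markers lay between 58.4 and 61.8 in vehicle and between 38.2 and 51.7 in treated libraries at 4 h. Most of that sum was Lyz2, at 46.8 to 51.1 in vehicle and 25.9 to 39.0 in treated libraries. Of the 5 markers tested at 4 h, Lyz2 alone was called (-0.58). Csf1r (0.22), Cd68 (0.18), Adgre1 (0.05) and Ptprc (-0.10) did not pass. At 24 h the sum lay between 206.5 and 239.2 in vehicle and between 83.0 and 96.6 in treated libraries, with Cd3e at 0 in every library. Lyz2 was again most of it, at 181.4 to 211.6 in vehicle and 65.2 to 78.3 in treated libraries. At that time 4 of the 5 of these markers that could be tested fell and Csf1r rose (0.22). Smooth muscle and pericyte markers summed to between 4.60 and 6.93 in vehicle and between 1.47 and 1.82 in treated libraries at 24 h. Mesothelial markers summed to between 13.4 and 21.5 at 4 h and between 5.19 and 7.96 at 24 h. Cardiomyocyte markers summed to at most 2.83. In such bulk samples, fewer cells of a type and less RNA per cell cannot be told apart, and the part of these shifts in the results was not tested.

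RefSeq promoter windows, each 250 bases before to 50 after a gene's start on GRCm38.p6, were at hand for 9 of the 10 genes. None was at hand for Cct4, so its promoter was not searched. The 9 genes had 12 windows in all, and the shares of all windows given below count windows, not genes. Hspd1 and Hspe1 lie head to head on chromosome 1. One RefSeq start of Hspd1 is 215 bases from that of Hspe1, and another Hspd1 start lies past the Hspe1 start, so that the genes overlap there. Heat shock elements, the sites of heat shock factors, are built from alternating GAA and TTC units. The stretches of 28 bases around each match to at least 2 such units (GAANNTTC or TTCNNGAA, both strands) are shown first, because they differ between the Hsp60 pair and TRiC; capitals mark the match, and each stretch is read 5′ to 3′ on the gene's strand.
Hspe1 (and, on the other strand, Hspd1), chr1:55088054-55088081, plus strand: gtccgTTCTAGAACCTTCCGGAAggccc
Cct2, chr10:117063400-117063427, minus strand: cccaagtgaaGAAGTTTCtagcaggacc
Cct5, chr15:31601863-31601890, minus strand: cagcggccgaTTCCAGAAgctactctgc
Cct6a, chr5:129787370-129787397, plus strand: cgtaagacttTTCGAGAAgaccccgcag

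The stretch shared by Hspd1 and Hspe1 held overlapping matches to 3 units in a row, which contain the 2-unit matches and together make up the capitals. A match to 3 units was GAA, TTC and GAA, or TTC, GAA and TTC, with 2 bases between units, on both strands. The stretch was 1 site counted for both genes. Its capitals began 89 bases before the Hspe1 start, and 0.603% of all 32851 windows held a match to 3 units. Matches to 2 units were in 15.1% of all windows and in those of Cct2, Cct5 and Cct6a, besides the Hsp60 pair. In Cct2 and Cct5 the match lay 42 and 34 bases before the start, and in Cct6a 24 bases after it.

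Cct7 and Cct3, the TRiC genes with the highest responses at 24 h, had no match to 2 units in their windows. Bases before their starts that lie in no annotated exon follow with CCAAT boxes (CCAAT or its complement ATTGG) in capitals.
Cct7, chr6:85451284-85451504, plus strand: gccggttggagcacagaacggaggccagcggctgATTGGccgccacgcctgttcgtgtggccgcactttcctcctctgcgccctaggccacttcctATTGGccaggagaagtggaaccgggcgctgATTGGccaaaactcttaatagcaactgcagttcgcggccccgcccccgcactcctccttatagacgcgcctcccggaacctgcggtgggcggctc
Cct3, chr3:88297000-88297115, plus strand: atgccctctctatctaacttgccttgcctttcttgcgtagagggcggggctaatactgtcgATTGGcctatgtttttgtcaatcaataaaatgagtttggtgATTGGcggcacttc

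CCAAT boxes were in 37.4% of all windows and in those of Cct3, Cct6a, Cct7, Hspd1 and Tcp1. The antioxidant response core TGACNNNGC, the letters bound by NRF2, was in 12.4% of all windows and in those of Cct2, Cct6a and Tcp1. The C/EBP-ATF letters TGATGNAAN were in 3.95% of all windows and in none of the 9 genes, and the E-box CACGTG was in 7.15% and in the window of the other Hspd1 start, which also holds the CCAAT box of Hspd1. These matches describe letters, and binding was not measured.

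After 4 h, Hspd1 rose and the other 9 genes did not pass the test. The count of 1 of 10 genes higher compares with 3.45% of all 15336 genes tested that rose, 3.71% that fell and 7.16% called in either direction, or 11.2% without vehicle replicate 1. All 10 genes passed the filter on low counts. After 24 h all 10 rose, by 1.25-fold to 3.28-fold, where 36.7% of all 15575 genes tested rose, 38.0% fell and 74.7% were called in either direction. At that time the median log2 fold change was 0.51 over the 8 TRiC genes, with a range of 0.32 to 0.93, and -0.02 over all genes tested. The Hsp60 pair stood at 1.45 and 1.71. The share of all genes whose groups did not overlap was not counted, so gaps given below for single genes carry no such comparison.

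**Figure D1:**
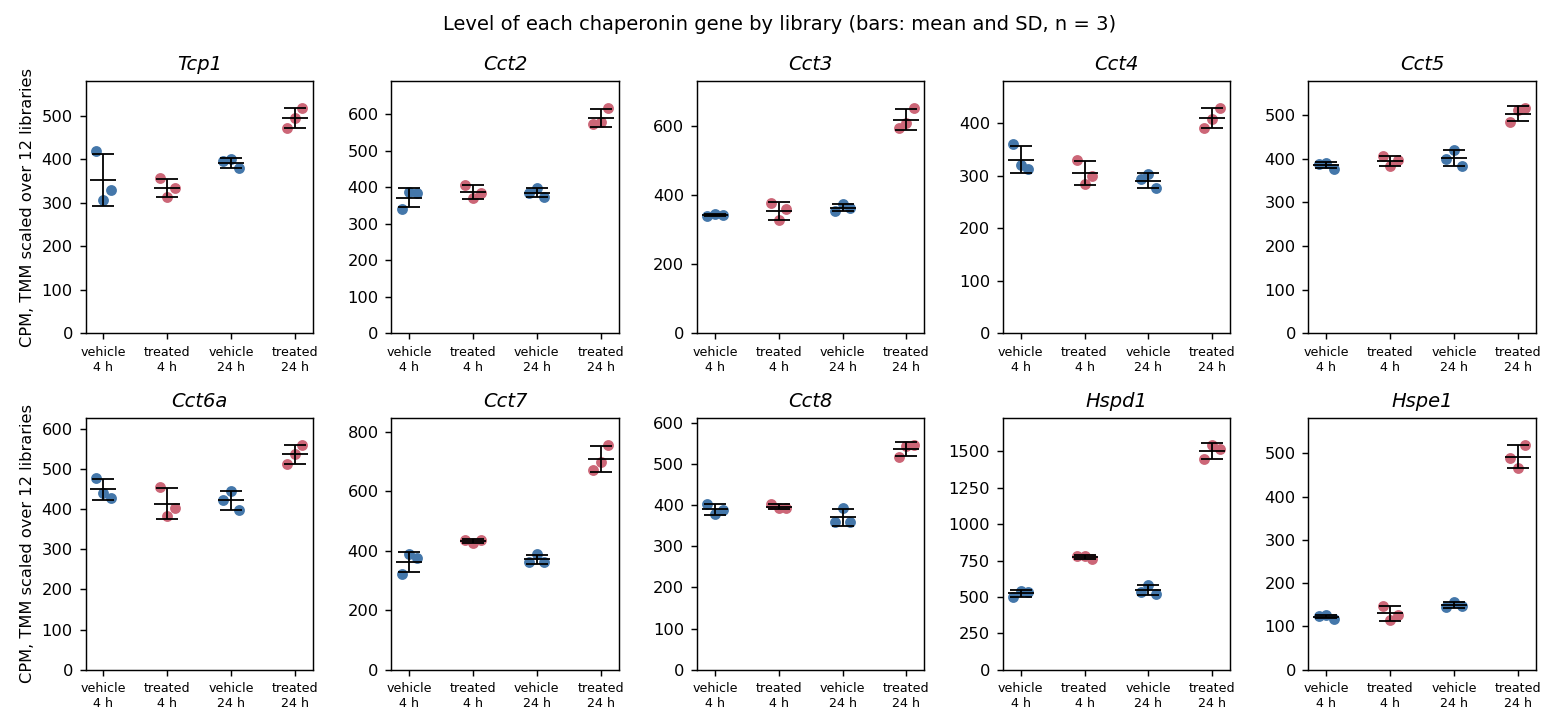
Depth-scaled counts (CPM, scaled with TMM over all 12 libraries) of each of the 10 genes by library, with the mean and SD of 3 libraries; blue points are vehicle and red points treated libraries, and each vertical axis starts at 0. In every panel the 3 treated libraries of 24 h lie above the other 9, and for Hspd1 the treated libraries of 4 h, at 762 to 781 CPM, also lie above all vehicle libraries. How many of all genes show such a gap was not counted, where 74.7% of those tested were called at 24 h.

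Hspd1 (ENSMUSG00000025980, GRCm39 chromosome 1, 55116994 to 55127402, minus strand), the subunit of the mitochondrial ring, was at 498, 540 and 535 CPM in the vehicle libraries of 4 h and at 781, 780 and 762 CPM in the treated ones. At 24 h it was at 534, 584 and 521 CPM in vehicle and at 1445, 1546 and 1517 CPM in treated libraries. The treated libraries were higher at both times with no overlap, and the treated libraries of 24 h stood apart from those of 4 h. The log2 fold change was 0.56 (SE 0.08, 1.48-fold, edgeR adjusted p = 0.00113, n = 3 per group) at 4 h and 1.45 (SE 0.05, 2.74-fold, edgeR adjusted p = 2.3e-15) at 24 h. Of all genes tested, 94.6% had a lower log2 fold change than Hspd1 at 4 h and 92.3% at 24 h.

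Hspe1 (ENSMUSG00000073676, GRCm39 chromosome 1, 55127291 to 55130466, plus strand), the lid, was at 125, 126 and 118 CPM in vehicle and at 148, 116 and 126 CPM in treated libraries at 4 h. The groups overlapped, and the log2 fold change was 0.08 (SE 0.10, edgeR adjusted p = 0.675). At 24 h it was at 144, 156 and 148 CPM in vehicle and at 489, 467 and 520 CPM in treated libraries. These groups lay far apart, and the rise of 1.71 (SE 0.05, 3.28-fold, edgeR adjusted p = 2.97e-16) was the highest of the 10 genes.

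The balance of the pair was followed as the Hspe1 to Hspd1 ratio of FPKM within each library. At 4 h the ratio was 0.452, 0.418 and 0.394 in vehicle and 0.340, 0.267 and 0.296 in treated libraries. Every treated library lay below every vehicle library (0.422 ± 0.0288 against 0.301 ± 0.0367, SD, n = 3 each). At 24 h the ratio was 0.484, 0.480 and 0.508 in vehicle and 0.607, 0.542 and 0.614 in treated libraries, now with every treated library above (0.491 ± 0.0154 against 0.588 ± 0.0398). The exact two-sided permutation test gave p = 0.1 at each time, the smallest that 3 against 3 libraries allow. The ratio is per deposited gene length. With the length of the principal GENCODE M21 transcript it was 0.736 and 0.525 at 4 h and 0.857 and 1.03 at 24 h, in the same directions.

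**Figure D2:**
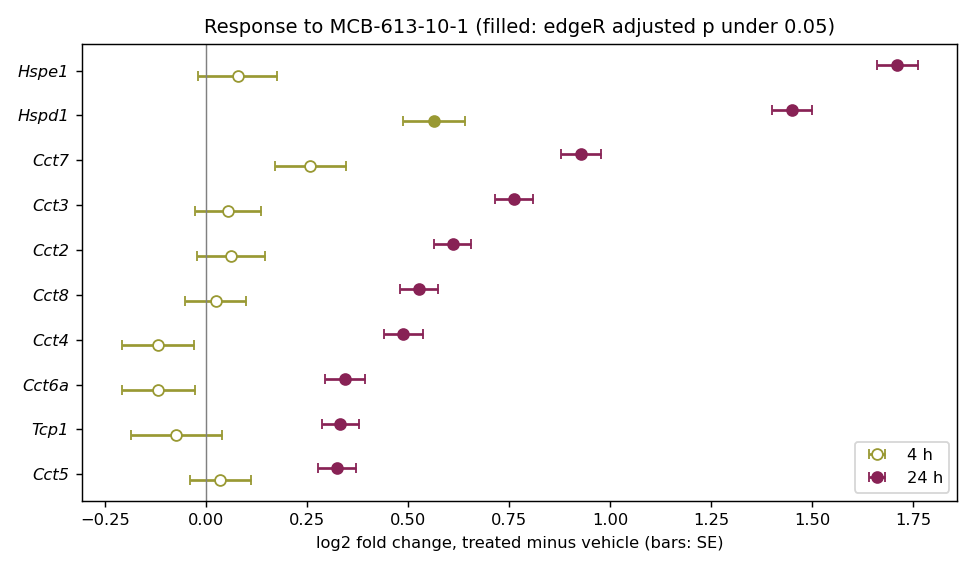
Log2 fold change of each of the 10 genes, treated minus vehicle, with its SE, at 4 h (olive) and 24 h (purple); filled points passed the edgeR test at an adjusted p under 0.05. At 4 h Hspd1 alone of the 10 is filled, at 0.56, and at 24 h all 10 are, from 0.32 for Cct5 to 1.71 for Hspe1.

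Among the TRiC genes, which all encode subunits of the same ring, Cct7 had the highest response at 24 h. Cct7 (ENSMUSG00000030007, GRCm39 chromosome 6, 85428496 to 85445457) was at 323, 388 and 376 CPM in vehicle and at 438, 425 and 437 CPM in treated libraries at 4 h. The groups did not overlap, yet the log2 fold change of 0.26 (SE 0.09) did not pass the test (edgeR adjusted p = 0.102). It passed with all 12 libraries in the fit (0.26, edgeR adjusted p = 0.0242), where 13.5% of all genes were called at 4 h, and over the other alternatives the adjusted p ran up to 0.311. At 24 h Cct7 was at 364, 389 and 361 CPM in vehicle and at 673, 698 and 757 CPM in treated libraries, a rise of 0.93 (SE 0.05, 1.90-fold, edgeR adjusted p = 2.34e-12).

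Cct3 (ENSMUSG00000001416, GRCm39 chromosome 3, 88204423 to 88229074) was at 353, 374 and 362 CPM in vehicle and at 592, 609 and 651 CPM in treated libraries at 24 h, 1.69-fold higher (log2 0.76, SE 0.05, edgeR adjusted p = 1.89e-11). Cct2 (ENSMUSG00000034024, GRCm39 chromosome 10, 116886906 to 116899719) went from 383, 399 and 373 CPM to 573, 580 and 617 CPM, 1.53-fold higher (log2 0.61, SE 0.05, edgeR adjusted p = 3.89e-10). Neither pair of groups overlapped at 24 h, whereas both did at 4 h, where the log2 fold changes were 0.06 for each gene (edgeR adjusted p = 0.728 and 0.707). With library totals as the only scaling, the value of Cct3 at 4 h was -0.0006.

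Cct8 (ENSMUSG00000025613, GRCm39 chromosome 16, 87280214 to 87292761) was at 360, 394 and 358 CPM in vehicle and at 516, 544 and 547 CPM in treated libraries at 24 h, 1.44-fold higher (log2 0.53, SE 0.05, edgeR adjusted p = 6.03e-09). Cct4 (ENSMUSG00000007739, GRCm39 chromosome 11, 22940519 to 22953780) went from 293, 303 and 276 CPM to 391, 408 and 429 CPM, 1.40-fold higher (log2 0.49, SE 0.05, edgeR adjusted p = 2.15e-08). The groups of each gene were apart at 24 h and overlapped at 4 h. With library totals as the only scaling the values at 24 h were 0.33 for Cct8 and 0.29 for Cct4, both still called. At 4 h Cct8 had a log2 fold change of 0.02 (edgeR adjusted p = 0.884) and Cct4 of -0.12 (adjusted p = 0.464).

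The lowest responses at 24 h were those of Cct6a, Tcp1 and Cct5. Cct6a (ENSMUSG00000029447, GRCm39 chromosome 5, 129864062 to 129875212) was at 423, 445 and 397 CPM in vehicle and at 513, 537 and 560 CPM in treated libraries, 1.27-fold higher (log2 0.34, SE 0.05, edgeR adjusted p = 3.76e-06). Tcp1 (ENSMUSG00000068039, GRCm39 chromosome 17, 13134588 to 13143954) went from 395, 401 and 379 CPM to 472, 496 and 518 CPM, 1.26-fold higher (log2 0.33, SE 0.05, edgeR adjusted p = 2.48e-06). Cct5 (ENSMUSG00000022234, GRCm39 chromosome 15, 31590946 to 31601950) went from 399, 421 and 384 CPM to 484, 512 and 517 CPM, 1.25-fold higher (log2 0.32, SE 0.05, edgeR adjusted p = 3.94e-06). The treated libraries lay above all vehicle libraries for each gene, and 64.2% to 65.1% of all genes tested had a lower log2 fold change. With library totals as the only scaling, their log2 fold changes were 0.15 for Cct6a, 0.14 for Tcp1 and 0.13 for Cct5, all still called (edgeR adjusted p = 0.00931, 0.00936 and 0.0162).

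At 4 h these 3 genes had log2 fold changes of -0.12 for Cct6a, -0.07 for Tcp1 and 0.04 for Cct5 (edgeR adjusted p = 0.469, 0.739 and 0.821). Cct4 and Cct6a were lower in the treated library of each of the 3 same-numbered pairs at 4 h, and Hspd1 and Cct7 were higher. How many of all genes lean the same way in each pair was not counted, and the numbers have no stated meaning. With the pair as a replicate block the values of Cct4 and Cct6a, -0.12 and -0.12, did not pass either (edgeR adjusted p = 0.301 and 0.3). Without vehicle replicate 1 they were -0.05 and -0.07. The libraries of Tcp1 were at 419, 307 and 330 CPM in vehicle and at 356, 314 and 333 CPM in treated cells. Vehicle replicate 1 lay above all others, and without it the value of Tcp1 was 0.07 (edgeR adjusted p = 0.595). The same library had the lowest Cct2 and Cct7 levels of its group, 341 and 323 CPM.

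The sum of the 8 TRiC genes, as FPKM, was 790, 772 and 761 in vehicle and 821, 756 and 781 in treated libraries at 4 h, groups that overlapped (774 ± 14.5 against 786 ± 32.5, SD, n = 3 each, exact two-sided permutation p = 0.7). Scaled by the plain sum of counts in place of the authors' totals, the difference at 4 h turned from 11.8 higher to 26.9 lower in treated cells. At 24 h the sum was 757, 792 and 732 in vehicle and 1037, 1078 and 1121 in treated libraries. The treated groups lay above, 761 ± 30.2 against 1079 ± 41.9, a ratio of 1.42 (exact two-sided permutation p = 0.1, the smallest possible). The difference of 318 FPKM was 206 with plain sums of counts.

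The subunit genes did not keep their shares of that sum at 24 h. Cct7 took 6.89% ± 0.0758 of it in vehicle and 9.19% ± 0.200 in treated libraries. Cct3 went from 7.17% ± 0.228 to 8.52% ± 0.107 and Cct2 from 18.9% ± 0.145 to 20.3% ± 0.290 (SD, n = 3 each). The shares of these 3 genes were higher in every treated library than in any vehicle library.
Lower shares were found for Cct5, which went from 18.3% ± 0.0853 to 16.0% ± 0.258. Cct6a went from 15.1% ± 0.290 to 13.5% ± 0.0489 and Tcp1 from 9.80% ± 0.195 to 8.66% ± 0.0593. These 3 did not overlap between groups either, and each of the 6 differences reached the smallest exact permutation p of 0.1 (0.133 after adjustment over the 8 subunits). Shares of 1 sum are not independent of each other. The levels of Cct5, Cct6a and Tcp1 rose at 24 h, although their shares were lower. The shares of Cct4 (8.71% and 8.57%) and Cct8 (15.1% and 15.3%) overlapped (exact permutation p = 0.2 and 0.6). At 4 h the share of Cct7 was already higher in treated libraries, 8.01% ± 0.277 against 6.74% ± 0.750, a difference of 1.27 percentage points that was 0.841 without vehicle replicate 1. Those of Cct4 (9.89% to 9.05%) and Cct6a (16.1% to 14.8%) were lower at 4 h, each with an exact permutation p of 0.1 (0.267 adjusted). Without vehicle replicate 1 the difference for Cct4 was -0.498 in place of -0.837 percentage points.

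**Figure D3:**
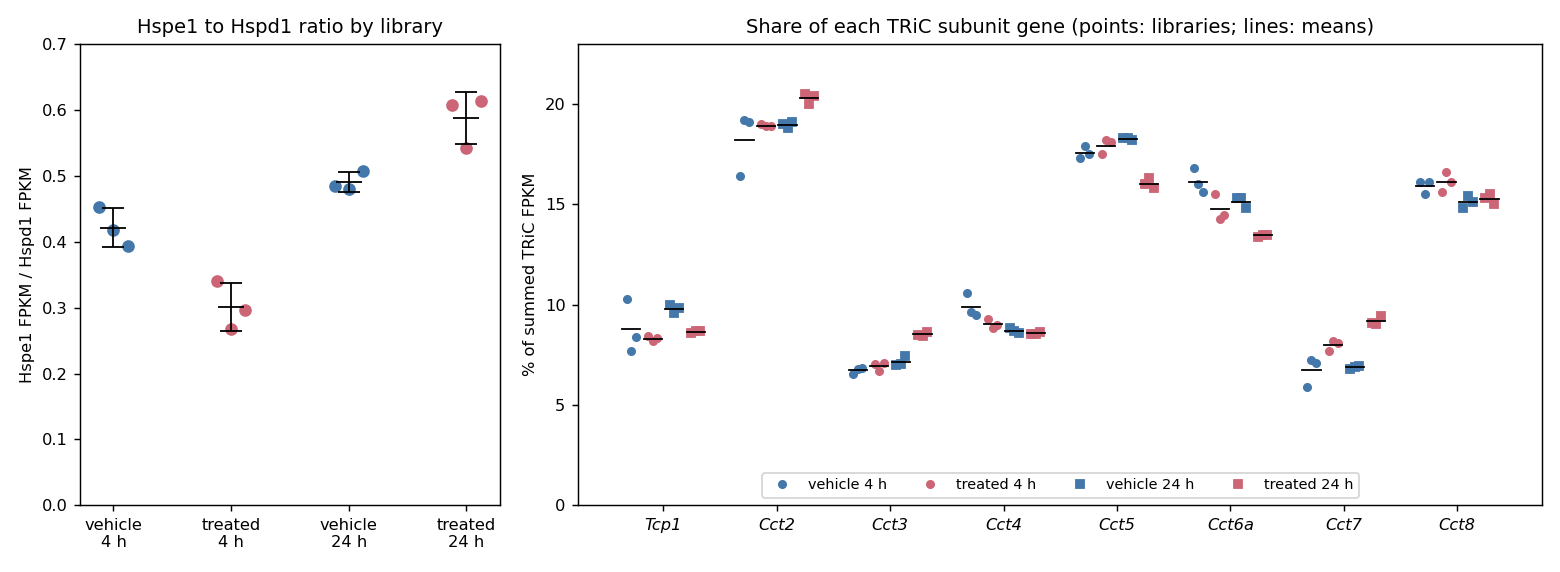
Left, ratio of Hspe1 to Hspd1 FPKM by library with mean and SD of 3 libraries; right, each TRiC gene's share of the summed TRiC FPKM, with points for libraries and lines for group means (circles 4 h, squares 24 h, blue vehicle, red treated). The ratio was lower in treated cells at 4 h (0.301 against 0.422) and higher at 24 h (0.588 against 0.491), and the share of Cct7 rose from 6.89% to 9.19% at 24 h while that of Cct5 went from 18.3% to 16.0%. The level of Cct5 itself rose at 24 h.

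The order of the TRiC levels rests on the gene length used. Per deposited length, the mean FPKM in vehicle at 24 h was highest for Cct2 (140 to 149 over the libraries) and Cct5 (133 to 145), which overlapped. Cct6a and Cct8 followed and also overlapped, then came Tcp1 and Cct4. Cct3 (53.1 to 55.9) and Cct7 (51.0 to 54.7), the lowest, overlapped as well. Deposited lengths, which count all exonic bases of a gene, were 6778 bases for Cct7 and 6370 for Cct3, against 2441 and 1977 in the principal transcript. Per principal transcript Cct5 came first (16.0%), followed by Cct2 (14.5%) and Cct3 (13.6%), and Cct4 (8.65%) was last. Cct6a has no coding transcript in that annotation, so its transcript in the basic set stood in, and its length enters all these shares. The directions of the 6 shares that did not overlap at 24 h were the same with both lengths.

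The change between the times was also tested on all 12 libraries. In vehicle cells, between 4 h and 24 h, Hspe1 rose by 0.28 (SE 0.08, edgeR adjusted p = 0.00642) and Cct4 fell by 0.18 (SE 0.07, edgeR adjusted p = 0.0423), while the other 8 genes did not pass. That is 2 of 10 genes, where 54.3% of all genes were called. The call of Cct4 was lost when any of 7 of the 12 libraries was left out (edgeR adjusted p up to 0.172). Without vehicle replicate 1 of 4 h, Tcp1 also passed in vehicle cells, with a rise of 0.30 (edgeR adjusted p = 0.000319). In treated cells all 10 genes rose between 4 h and 24 h, from 0.35 for Cct5 to 1.92 for Hspe1 on the log2 scale, where 30.0% of all genes rose and 61.9% were called in either direction.

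The response at 24 h exceeded that at 4 h for all 10 genes in the interaction test (26.7% of all 16341 genes tested were higher and 53.8% were called in either direction). The difference was 1.64 (SE 0.11) for Hspe1 and 0.90 for Hspd1, and between 0.29 for Cct5 and 0.71 for Cct3 among TRiC genes. The adjusted p was highest for Tcp1 (0.41, edgeR adjusted p = 0.0112) and Cct5 (0.29, edgeR adjusted p = 0.0078). Without vehicle replicate 1 of 4 h the difference of Tcp1 was 0.26. With library totals as the only scaling, which shifts the median of all genes by -0.14, Tcp1 and Cct5 no longer passed (0.27 and 0.15, edgeR adjusted p = 0.0939 and 0.157). Names of group means in the 24 h table have a prefix that is absent at 4 h and has no stated meaning, so time and any other difference between the tables cannot be told apart in these comparisons.

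The scaling bears on the direction of small changes. With library totals alone, the median of all genes moved to -0.06 at 4 h and to -0.21 at 24 h, and the share of called genes that were higher was 34.5% in place of 48.2% at 4 h and 39.0% in place of 49.1% at 24 h. All 10 genes still rose at 24 h, and the lowest value, that of Cct5, was 0.13 (edgeR adjusted p = 0.0162).

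Genes that work with TRiC or Hsp60 were counted in lists made with earlier results known. The counts are to be read against the shares of all genes tested, 36.7% higher and 38.0% lower at 24 h and 3.45% and 3.71% at 4 h. Rose and fell in these lists compare treated with vehicle cells at 1 time. Vehicle levels of several listed genes also changed between 4 h and 24 h. Of the 6 genes of prefoldin, which delivers unfolded actin and tubulin to TRiC, 4 rose and 0 fell at 24 h, with a median log2 fold change of 0.32. They included Pfdn2 (0.85, SE 0.08) and Pfdn4 (0.55, SE 0.07). None of the 6 passed at 4 h, where Pfdn2 stood at 0.43 with an SE of 0.35. In the interaction test 2 of the 6 were called, Pfdn4 among them, and Pfdn2 was not. Of 3 phosducin-like cofactors, Txndc9 (0.38) and Pdcl (0.26) rose and Pdcl3 fell by 0.50 at 24 h.

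Of 14 actin and tubulin genes, whose products TRiC folds, 11 fell and 2 rose at 24 h, where 38.0% and 36.7% of all genes did, and the median was -0.88. Tubb3 (-4.05, SE 0.18) and Tuba1b (-2.41, SE 0.05) fell most, and Tuba4a (1.03, SE 0.05) and Actg1 (0.20, SE 0.05) rose. Between 4 h and 24 h, Tubb3 rose by 2.25 in vehicle cells and fell by 1.54 in treated cells. Tubb4b, 1 of the 11, rose over that time in both vehicle (0.71) and treated cells (0.31). At 4 h, Tuba4a (0.48) and Tubb2a (0.50) rose and Tubb5 fell by 0.29. Several alpha- and beta-tubulin genes are close in sequence, as are the actin genes among themselves, and how reads were split among such copies is not known. Of 5 tubulin cofactors, Tbce rose (0.83) and 3 fell at 24 h, Tbcc by 0.81.

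Of 7 other clients, 4 fell and 1 rose at 24 h. Cdc20 (-3.27, SE 0.06) and Fzr1 (-1.09, SE 0.07), both activators of the anaphase-promoting complex, fell, and Cdc37 (0.26), an Hsp90 cochaperone, rose. The fall of Cdc20 was also called at 4 h (-0.68, SE 0.13, edgeR adjusted p = 0.00888). Between 4 h and 24 h, Cdc20 rose by 1.57 in vehicle cells and fell by 1.01 in treated cells. The chaperonin-like genes Bbs12, Bbs10 and Mkks, which help to assemble the BBSome of the cilium, all fell at 24 h (-1.67, -1.06 and -0.45), and Bbs12 and Bbs10 fell at 4 h (-0.72 and -0.77). The testis paralog Cct6b did not pass the filter on low counts.

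The mitochondrial partners of Hsp60 moved both ways at 24 h. Of 7 genes of mitochondrial Hsp70 and its partners, 4 rose and 3 fell (median 0.14). Hspa9, the mitochondrial Hsp70, rose by 1.32 (SE 0.05), and its nucleotide exchange factors Grpel2 and Grpel1 rose by 1.07 and 1.06. Between 4 h and 24 h, Hspa9 fell by 0.63 in vehicle cells and rose by 0.505 in treated cells. Hscb, which serves iron-sulfur cluster assembly, fell by 0.79, Trap1, the mitochondrial Hsp90, by 0.71, and Dnlz by 0.37. None of the 7 passed at 4 h.

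Of 7 mitochondrial proteases, 5 rose and 2 fell at 24 h (median 0.54). Lonp1, the matrix protease, rose by 0.38 (edgeR adjusted p = 0.0447) at 4 h and by 1.57 (SE 0.05) at 24 h, and Afg3l2, of the inner membrane, by 0.33 and 1.08. Between 4 h and 24 h, Lonp1 fell by 0.51 and Afg3l2 by 0.33 in vehicle cells. In treated cells they rose by 0.695 and 0.425 over that time. Spg7, the partner of Afg3l2, fell by 0.59 and Htra2, of the intermembrane space, by 0.31 at 24 h.

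Among transcription factors tied to mitochondrial stress, Ddit3 (2.56, SE 0.09), Atf4 (1.49, SE 0.05) and Cebpb (1.44, SE 0.09) rose at 24 h, and Atf5 had a value of 0.09 that did not pass. Ddit3 was also higher at 4 h (0.51, edgeR adjusted p = 0.0199). Cebpb (1.05, SE 0.33, edgeR adjusted p = 0.137), Atf5 (0.37) and Atf4 (0.33) did not pass at 4 h. Between 4 h and 24 h, Ddit3 fell by 1.02 and Atf4 by 0.83 in vehicle cells. In treated cells they rose by 1.04 and 0.33 over that time, and Cebpb passed in neither. The heat shock factors Hsf2 (2.03, SE 0.07) and Hsf1 (0.84, SE 0.06) rose at 24 h, and neither passed at 4 h. At that time Hsf2 stood at 0.55 (edgeR adjusted p = 0.0544), with groups that did not overlap, and Hsf1 at 0.18 (edgeR adjusted p = 0.357).

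**Figure D4:**
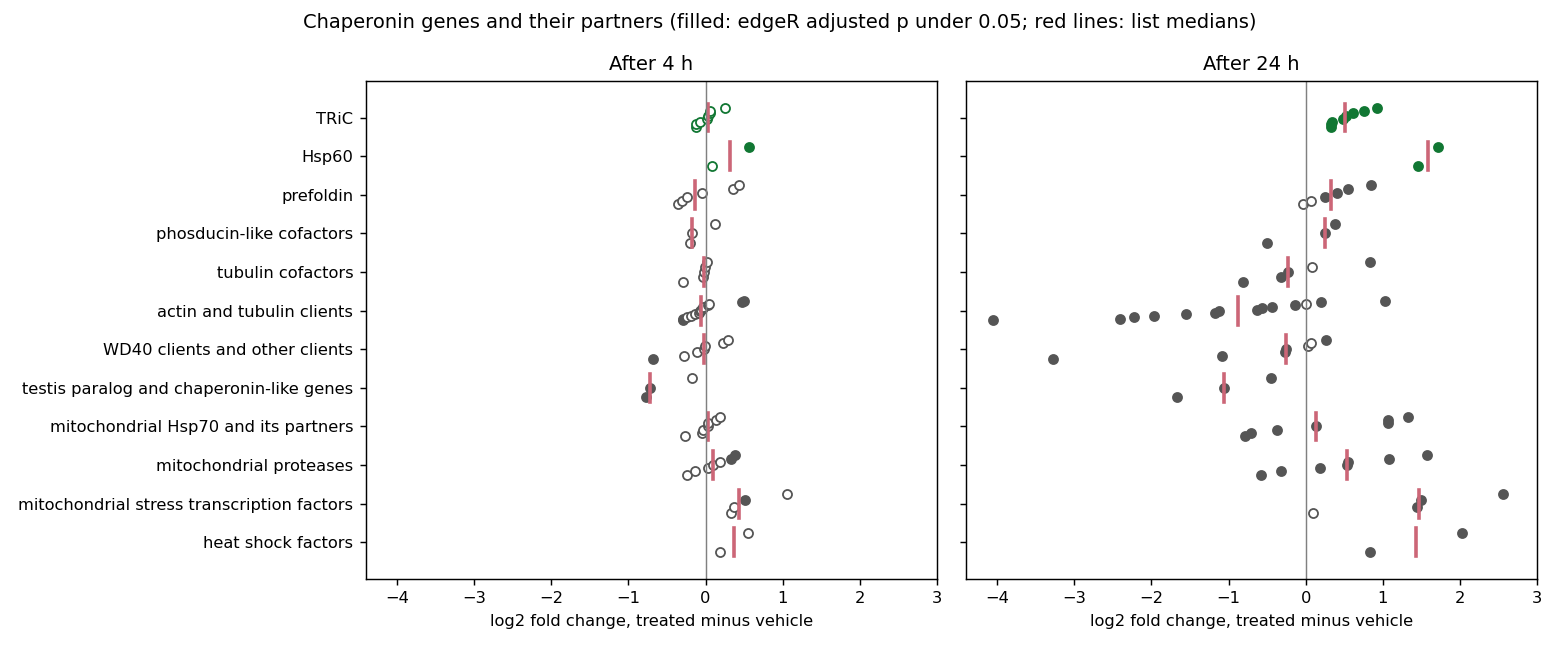
Log2 fold change, treated minus vehicle, of each gene in the chaperonin lists (green) and in the lists of partners and clients (grey), at 4 h (left) and 24 h (right); filled points passed the edgeR test at an adjusted p under 0.05 and red lines are list medians. At 24 h the median of TRiC was 0.51 and that of the actin and tubulin clients -0.88.

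Across the 12 libraries, the genes whose log2 CPM was most like the mean of the 8 TRiC genes, among 8913 genes, were Psma6 (Pearson r = 0.996), Psmc6 (0.995), Fxr1 (0.993), Pnpla8 (0.992) and Esd (0.992). For the mean of Hspd1 and Hspe1 they were Psmc2 (0.997), Gga2 (0.997), Maco1 (0.997), Mfsd1 (0.996) and Psmd4 (0.996). Psma6, Psmc6, Psmc2 and Psmd4 encode proteasome subunits. The SD of Psma6 over the libraries was 2.07 times that of the TRiC mean, while Psmc2 moved 0.95 times as far as the Hsp60 mean. Among the members themselves r ran from 0.683 (Tcp1 with Hspd1) to 0.995 (Cct3 with Hspe1). The 12 points are 4 groups of 3 libraries, so these values describe the likeness of group levels and carry no test.

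Some counts may hold reads of a neighbour, since the labels do not say whether the libraries kept strand. By the deposited coordinates Hspd1 and Hspe1 share 112 bases on opposite strands, Cct6a shares 452 with Psph, Cct7 457 with Pradc1, Cct8 192 with Usp16, and Tcp1 645 with Mrpl18 and 1255 with Acat3. Psph held between 1067 and 1759 counts in vehicle and between 1441 and 4508 in treated libraries, whereas Pradc1 held at most 248. Usp16 held between 1716 and 2462 in vehicle and between 1488 and 3511 in treated libraries. Mrpl18 held between 481 and 1307 in vehicle and between 307 and 564 in treated libraries, and Acat3 at most 19. The processed pseudogene Hspd1-ps3 held 2.06% to 2.48% of the Hspd1 count, by group. Hspd1-ps3 rose at 4 h (0.45, edgeR adjusted p = 0.0287) and at 24 h (1.28, edgeR adjusted p = 3.79e-10), and how its reads were separated from those of Hspd1 is not known.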

How the data were processed

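RNA of 12 libraries was counted per gene by the authors. The submitters' processing notes list HISAT2 2.0.5, featureCounts 1.5.0-p3 and DESeq2, and the build GRCm39 (mm39). Per the file headers, the deposited tables of each time hold raw counts, a deposited signal of counts divided by a size factor, FPKM, and the authors' log2 fold change with its p-value. The deposited log2 fold changes and p-values were not used for the results. The FPKM values that the authors deposited rest on scaled library totals, at 24 h 1.10 to 1.11 times the plain sums of counts for vehicle and 0.954 to 0.981 times for treated libraries. They were normalized within a time, so FPKM was tested only within a time.

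Tests on raw counts were two-sided and used edgeR 4.0.16 in R 4.3.3 (glmQLFTest with robust dispersions, its default filter on low counts and TMM scaling). A call means a Benjamini-Hochberg p, adjusted over all genes tested, of less than 0.05. The 4 h and 24 h responses used the 6 libraries of that time, and changes over time used all 12, with a gene absent from 1 table entered as 0 counts. Printed CPM use TMM factors over 12 libraries. Ratios, sums and shares of FPKM were compared with exact permutation tests, which cannot go below 0.1. The fits were tested on simulated counts in which few genes changed, as many up as down. The scaling for data in which most genes change was not checked that way. Alternatives were DESeq2 1.42.0 and its size factors, library totals, no filter, a replicate block, limma-trend (limma 3.58.1) on log2(FPKM + 0.1), all 12 libraries, other lengths, and leaving out each library. No pair of libraries agreed within sampling noise.

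Replicate numbers are shared between groups without a stated meaning. Deviations from the group means correlated between same-numbered libraries at 4 h (r = 0.236, 0.196 and 0.312), where differently numbered ones had r of at most 0.0322. At 24 h the same-numbered values (0.121, 0.0866 and -0.149) lay within the range of the others (-0.274 to 0.199). Deviations cancel within a group, so these values are not independent, and whether the numbers mark pairs is not known.

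Named genes were all 10 members, overlapping genes and copies (some genes the rule names are not reported here), the 2 called genes with the largest change at 24 h from each partner list and those moving against it, and the 5 genes most like each chaperonin by Pearson correlation, protein-coding with a mean of at least 10 CPM. A further called gene of a list, and values at 4 h, were added after they were seen. The members, lists and motifs were chosen with earlier results of these data known. Promoter sequences are RefSeq's on GRCm38.p6, matched by symbol, whereas gene coordinates are the deposited GRCm39 ones.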

Additional observations from a re-analysis of the deposited data

Results flagged for a closer look

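For all 10 genes the response to MCB-613-10-1 differed between 24 h and 4 h by the edgeR interaction test. The difference, in log2 units of the 24 h response minus the 4 h response, was 1.64 for Hspe1 and 0.9 for Hspd1. Among TRiC genes it was 0.71 for Cct3, 0.67 for Cct7, 0.61 for Cct4, 0.55 for Cct2, 0.51 for Cct8, 0.47 for Cct6a, 0.41 for Tcp1 and 0.29 for Cct5. Of all genes tested, 53.8% differed in the same test. The tables of the 2 times name their group means differently, with a prefix at 24 h that has no stated meaning, so time and any other difference between them cannot be told apart.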

How the results depend on the processing

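At 24 h all 10 genes rose in all 13 alternatives. The 24 h response differed from the 4 h response in 168 values of a gene under an alternative and not in 2, Tcp1 and Cct5 with library totals alone. With the replicate block the 4 h count stayed at 1 gene (Hspd1, edgeR adjusted p = 0.000858), and the block changed no other call of the 10 genes, although 12.7% of all genes passed at 4 h in place of 7.16%. The 4 h count was 2 with all 12 libraries in the fit, where Cct7 joined and 13.5% of all genes passed. In vehicle cells over time the count was 1 with library totals alone, and from 1 to 2 when 1 library was left out. Log2 fold changes at 4 h that turned sign were small. With library totals alone those of Cct3 (-0.000595), Cct5 (-0.0212) and Cct8 (-0.0328) did so. With 1 library left out, Tcp1 ran from -0.164 to 0.0703 (the latter without vehicle replicate 1) and Hspe1 from -0.0249 (without treated replicate 1) to 0.153. The cause was not tested. With 1 library left out, the difference in share at 4 h ran from -1.01 to 0.258 for Tcp1 and from -0.245 to 1.14 for Cct2, both turning without vehicle replicate 1, and from -0.0742 (without treated replicate 2) to 0.444 for Cct8. At 24 h that of Cct8 turned to -0.164 per principal transcript length, a setting chosen after seeing the data. The difference in summed TRiC FPKM at 4 h turned to -26.9 with plain sums of counts, to -33.5 per principal transcript length, and ran from -5.63 to 26.6 with 1 library left out. With 3 libraries per group the shares, sums and ratios cannot pass an exact test. The share of all genes called at 4 h ran from 2.82% to 11.2% when 1 library was left out.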
